A study of Mus musculus with 12 samples.

Results

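The genes described are 10 that mark epithelial cells: the adhesion molecule *Epcam*, the claudins *Cldn3*, *Cldn4*, *Cldn6* and *Cldn7*, the keratins *Krt8*, *Krt18* and *Krt19*, the splicing regulator *Esrp1* and the transcription factor *Grhl2*. They were taken by symbol and Ensembl identifier, and each symbol matched 1 of the 55141 genes in the count table. All 10 passed the filter on low counts in every comparison, among 16388 genes tested when the 12 libraries were fitted together. The samples were gastruloids, aggregates of mouse embryonic stem cells of the 129/SVEV background that received a pulse of the Wnt agonist CHIR99021. At 72 h or at 96 h after seeding they were embedded in a dextran-PEG hydrogel, either the 1.0 mM gel (here the dilute gel) or the 1.5 mM gel (the dense gel), and all were freed with dextranase and collected at 120 h. Each of the 4 groups (72 h in the dilute gel, 72 h in the dense gel, 96 h in the dilute gel and 96 h in the dense gel) held 3 libraries, described by the study as biological replicates and each made from a pool of gastruloids. Gastruloids embedded at 72 h had also spent longer in a gel than those embedded at 96 h, so the time at which embedding began and the time spent embedded cannot be told apart. No library without a gel was analysed here.

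Epithelial cells are joined by tight junctions, in which claudins form the strands that seal the space between cells, and they carry a scaffold of keratin filaments built from pairs of a type I and a type II keratin. *Krt8* is a type II keratin, *Krt18* and *Krt19* are type I keratins, and these are the first keratins made in the embryo and the keratins of simple epithelia. *Epcam* is a homophilic adhesion molecule that binds *Cldn7* at the membrane, *Esrp1* sets the epithelial forms of many spliced transcripts, and *Grhl2* activates claudin and cadherin genes. In the early embryo such genes are used by the epiblast, the gut endoderm, the node and notochord and the surface ectoderm.

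Total counts ran from 23011791 to 27609422 per library, and no pair of replicates was a repeat of one library (chi-square per degree of freedom of their counts 10.1 to 123). The gene *CT010467.1* took 6.12% of the counts in replicate 1 of the group at 72 h in the dense gel and 4.21% in replicate 2 of the group at 96 h in the dense gel, more than any gene in the other 10 libraries, and results that turn on these libraries are given with and without them. The axial markers that define gastruloids were detected, with mean counts over the 12 libraries of 3902 for *T*, 637 for *Sox2* and 5436 for *Meox1*. Levels are in CPM (counts scaled to a common library size) with TMM factors, in which the values of one gene can be compared between libraries, or in FPKM, which is also divided by transcript length and so allows genes to be compared with each other. Because these are bulk samples, fewer cells of a type and less RNA per cell cannot be told apart. A gene was called when its adjusted p in edgeR's quasi-likelihood test was below 0.05, and counted as differentially expressed (DE) when its fold change also exceeded 1 on the log2 scale.

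Some of the 10 genes lie next to each other. In mm10, *Cldn4* (chr5:134945119-134946934, minus strand) and *Cldn3* (chr5:134986214-134987472, plus strand) are single-exon genes 39279 bp apart, and *Krt8* (chr15:101996698-102004482, minus strand) and *Krt18* (chr15:102028180-102032027, plus strand) are 23697 bp apart. *Cldn6* (chr17:23679249-23682446) ends 137 bp from another claudin, *Cldn9*, while *Krt19* (chr11:100140810-100146120, minus strand) lies in the cluster of type I keratins, 4881 bp from *Krt15*. The remaining genes are *Cldn7* (chr11:69964779-69967885), *Epcam* (chr17:87635979-87651129), *Esrp1* (chr4:11331933-11386783, minus strand) and *Grhl2* (chr15:37233036-37363569). The sequences just before the starts of both neighbouring pairs are shown because 1 pair, *Krt8* and *Krt18*, moved together with embedding time while of the other pair only *Cldn4* was called. They are from RefSeq (GRCm38.p6), written 5′ to 3′ on the strand of the gene: *Cldn4* at chr5:134946935-134947184 (minus), *Cldn3* at chr5:134985964-134986213 (plus), *Krt8* at chr15:102004483-102004592 (minus) and *Krt18* at chr15:102027966-102028179 (plus). Capitals mark matches to the motifs searched, on either strand.
Cldn4: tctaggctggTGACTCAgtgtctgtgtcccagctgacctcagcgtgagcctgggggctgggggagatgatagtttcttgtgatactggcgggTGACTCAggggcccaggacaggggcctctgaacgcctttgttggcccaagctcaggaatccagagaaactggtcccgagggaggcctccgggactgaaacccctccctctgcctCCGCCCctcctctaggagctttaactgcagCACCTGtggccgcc
Cldn3: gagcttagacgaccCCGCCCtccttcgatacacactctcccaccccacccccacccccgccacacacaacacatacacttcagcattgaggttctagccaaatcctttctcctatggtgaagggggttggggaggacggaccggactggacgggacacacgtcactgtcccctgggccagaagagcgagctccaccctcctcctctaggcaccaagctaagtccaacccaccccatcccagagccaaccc
Krt8: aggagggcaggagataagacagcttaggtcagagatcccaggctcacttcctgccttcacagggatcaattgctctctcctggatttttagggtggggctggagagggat
Krt18: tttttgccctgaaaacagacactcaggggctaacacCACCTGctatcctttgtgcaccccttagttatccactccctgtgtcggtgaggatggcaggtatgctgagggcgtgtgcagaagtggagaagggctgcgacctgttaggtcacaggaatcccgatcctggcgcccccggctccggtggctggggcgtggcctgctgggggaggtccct

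The motifs searched were those bound by grainyhead-like factors (AACCNGTT) and AP-1 (TGANTCA), the GC box (GGGCGG), the TATA box (TATAAA) and the E-box bound by Snail and Zeb repressors (CACCTG), and no base of these windows belonged to 2 matches. The *Cldn4* window held 2 matches to the AP-1 motif, which 6.75% of 32851 promoter windows of the same length held at least once, as well as 1 GC box and 1 E-box. The *Cldn3* window held 1 GC box, the *Krt18* window 1 E-box (15.2% of windows of its length) and the *Krt8* window no match. At the GENCODE start the *Krt8* window was cut to 110 bases and the *Krt18* window to 214. Bases of these 2 genes nearer their RefSeq starts were therefore not searched. The grainyhead-like motif was in none of the 7 windows that the RefSeq table gave for the 10 genes (windows for *Krt19*, *Esrp1* and *Grhl2* were not used here), and 1.79% of 250-base windows held it. A match is a run of letters and does not show that a factor binds there.

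The first comparison asked whether these genes differed with the time of embedding. The 3 keratins were higher after embedding at 72 h than at 96 h in both gels, *Cldn4* was lower in both, *Grhl2* was lower across the gels, and *Epcam*, *Cldn3*, *Cldn6*, *Cldn7* and *Esrp1* were not called. In the dilute gel 4 of the 10 genes were called, where 9.24% of the 15763 genes tested were called, 3 of them higher at 72 h (background 5.97%) and 1 lower (background 3.27%). The dense gel again gave 3 higher (background 10.4%) and 1 lower (background 8.98%), where 19.3% of 15683 genes were called. *Cldn7*, *Esrp1* and *Grhl2* were added to the called genes when replicate 1 at 72 h was left out, where 4102 of 16064 genes were called. Without the pair of libraries richest in *CT010467.1* the dense gel gave 6, where 2990 of 15831 genes were called. The 4 genes called were *Krt8*, *Krt18*, *Krt19* and *Cldn4* in each gel. Both comparisons use different libraries, but libraries with the same replicate number tended to vary together across groups, so the comparisons may not be independent. Across both gels 5 of 10 were called, 3 higher (background 16.2%) and 2 lower (background 14.8%), where 31.1% of all genes were called. *Krt8* was DE in the dilute gel (4.3% of genes were DE), *Krt19* in the dense gel (3.18%) and both across the gels (4.66%). Groups did not overlap for 5 genes in the dilute gel (28.4% of all genes), for 4 in the dense gel (39.9%) and for the 3 keratins over all 12 libraries (11.8%). The median log2 fold change of the 10 genes was 0.02 in the dilute gel, -0.14 in the dense gel and -0.07 across both, beside medians of -0.01 over all genes in each, so the genes as a group had no single direction.

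**Figure D1:**
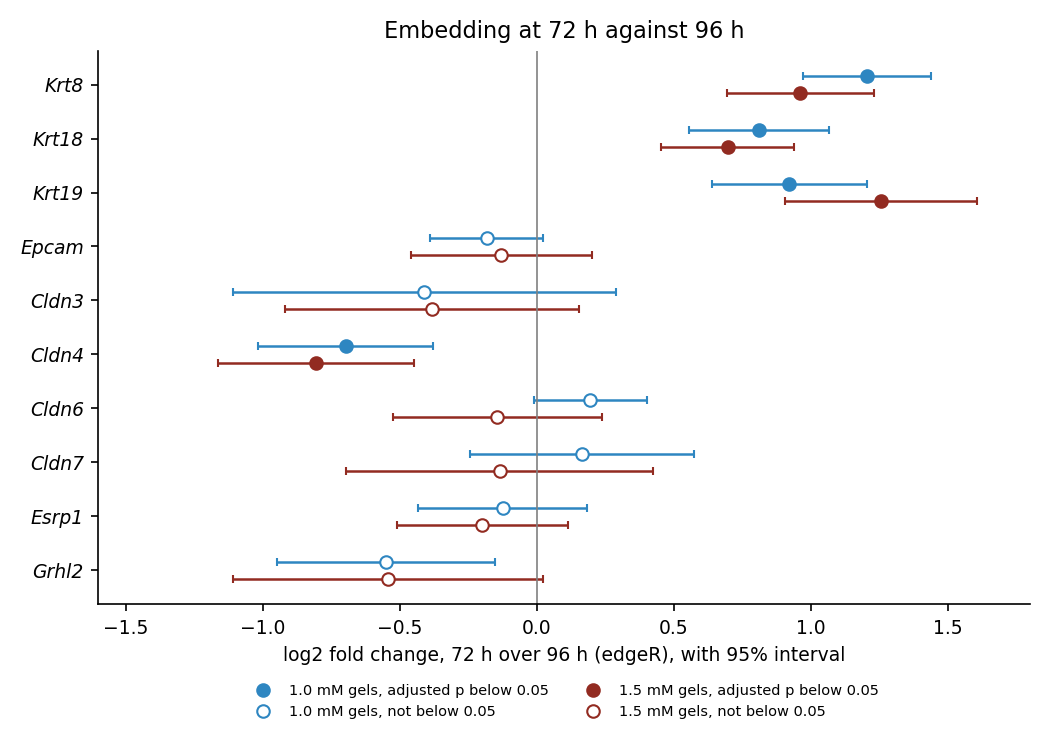
Log2 fold change of each gene between embedding at 72 h and at 96 h (x axis, positive is higher at 72 h), in the dilute 1.0 mM gel (blue) and the dense 1.5 mM gel (red), 3 libraries against 3 in each. Bars are 95% intervals from the edgeR fit, and filled points passed an adjusted p of 0.05: *Krt8*, *Krt18* and *Krt19* lie to the right and *Cldn4* to the left in both gels.

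The keratins did not overlap between embedding times over the 12 libraries. *Krt8* had 205, 172 and 174 CPM at 72 h in the dilute gel and 84.3, 86.8 and 68.8 CPM at 96 h, which gives means of 184 ± 18.5 and 80.0 ± 9.74 CPM (SD, n = 3 each). Its dense-gel libraries had 151, 161 and 120 CPM at 72 h and 80.7, 76.4 and 63.6 CPM at 96 h. The lowest of the 6 libraries embedded at 72 h lay above the highest of the 6 embedded at 96 h. The difference was 2.31-fold in the dilute gel (1.21 ± 0.11 in log2 with its SE, edgeR adjusted p = 0.00011) and 1.95-fold in the dense gel (0.96 ± 0.12, adjusted p = 0.00259).

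*Krt18*, the usual partner of *Krt8* in a filament, had 125, 92.7 and 90.7 CPM at 72 h and 58.0, 60.3 and 58.0 CPM at 96 h in the dilute gel. The dense gel gave 86.0, 102.4 and 77.9 CPM at 72 h and 58.8, 56.4 and 48.5 CPM at 96 h. Embedding times again did not overlap, and the differences were 1.76-fold (0.81 ± 0.12 in log2, adjusted p = 0.00169) and 1.62-fold (0.70 ± 0.11, adjusted p = 0.00438). *Krt19*, which can replace *Krt18* as the type I partner, had 27.7, 28.8 and 22.5 CPM at 72 h and 15.4, 12.8 and 13.5 CPM at 96 h in the dilute gel. Its libraries from the dense gel had 22.9, 27.9 and 21.4 CPM at 72 h and 10.9, 11.3 and 7.87 CPM at 96 h. It too did not overlap between embedding times, and it was higher by 1.90-fold in the dilute gel (0.92 ± 0.13, adjusted p = 0.00144) and by 2.39-fold in the dense gel (1.26 ± 0.16, adjusted p = 0.00259). Across both gels, in a fit of all 12 libraries, the log2 fold changes were 1.08 ± 0.09 for *Krt8*, 0.75 ± 0.09 for *Krt18* and 1.09 ± 0.11 for *Krt19* (edgeR adjusted p between 1.17e-06 and 2.16e-05).

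**Figure D2:**
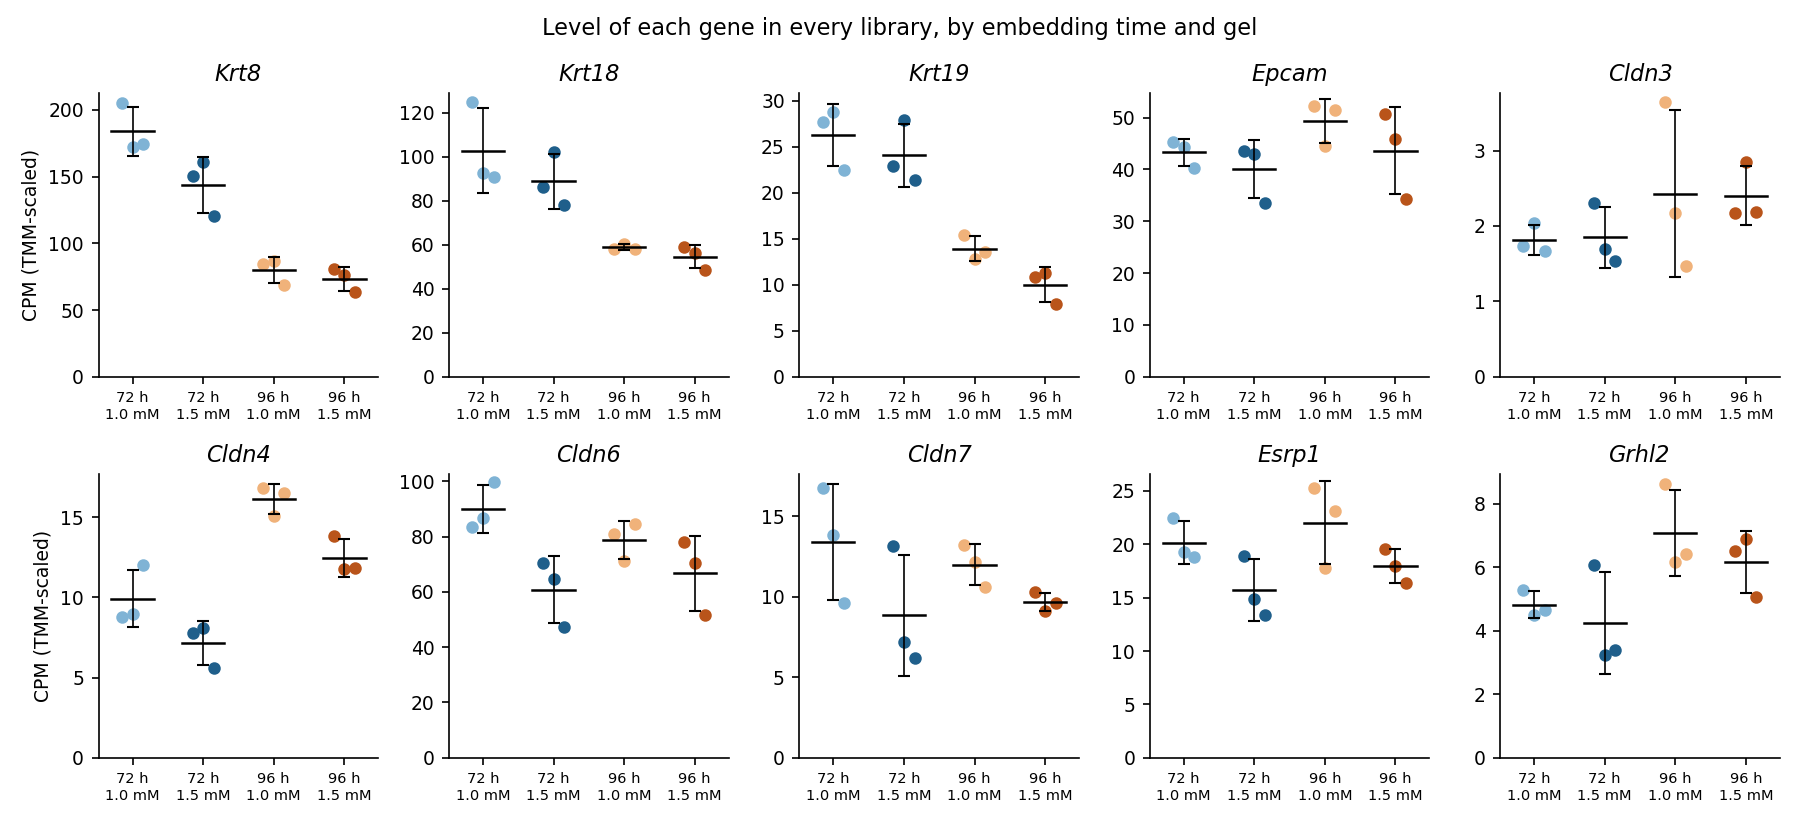
Level of each of the 10 genes in TMM-scaled CPM (y axes start at 0) in every library, by embedding time and gel concentration. Points are libraries, horizontal lines are group means and error bars are SD over 3 libraries. The 3 keratins lie higher in all libraries embedded at 72 h, *Cldn4* lies lower at 72 h within each gel, and the other genes overlap between embedding times in at least 1 gel.

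Of the 4 claudins, only *Cldn4* was called, and in the opposite direction to the keratins. *Cldn4*, a barrier-forming claudin of many simple epithelia, had 8.77, 8.99 and 12.0 CPM at 72 h and 16.8, 15.1 and 16.5 CPM at 96 h in the dilute gel. The dense gel gave 7.77, 8.10 and 5.60 CPM at 72 h and 13.8, 11.8 and 11.8 CPM at 96 h. The groups did not overlap within either gel, although the highest library at 72 h in the dilute gel reached the lowest at 96 h in the dense gel. It was 1.62-fold lower after embedding at 72 h in the dilute gel (-0.70 ± 0.15 in log2, adjusted p = 0.0124) and 1.75-fold lower in the dense gel (-0.81 ± 0.16, adjusted p = 0.0103). The call in the dilute gel was lost without replicate 3 of the group at 96 h (-0.68, adjusted p = 0.0541), and the adjusted p ranged from 0.00014 to 0.0541 over the alternatives.

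*Cldn6*, a claudin of embryonic epithelia and of pluripotent stem cells, had 83.4, 86.9 and 99.8 CPM at 72 h and 80.8, 71.3 and 84.6 CPM at 96 h in the dilute gel. With the dense gel it had 70.5, 64.5 and 47.2 CPM at 72 h and 78.1, 70.6 and 51.8 CPM at 96 h. Embedding times overlapped in both gels, and the 95% interval of the difference across both gels ran from -0.21 to 0.27 on the log2 scale, below the fitted change of each keratin. *Cldn7*, the claudin that binds *Epcam*, ranged from 9.61 to 16.7 CPM at 72 h and from 10.6 to 13.2 CPM at 96 h in the dilute gel, and from 6.16 to 13.1 CPM and 9.11 to 10.3 CPM in the dense gel. Its difference across both gels was 0.02 ± 0.17 (edgeR adjusted p = 0.947). Replicate 1 at 72 h in the dense gel, the library with the most *CT010467.1*, had the highest *Cldn7* of its group, and without that library *Cldn7* was called lower at 72 h (-0.54, adjusted p = 0.0190). *Cldn3*, another barrier claudin, was near the limit of these libraries with 38 to 95 counts, and its difference of -0.40 ± 0.20 across both gels was not called (adjusted p = 0.147), but was called without replicate 3 at 96 h in the dilute gel (-0.52, adjusted p = 0.0470).

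*Epcam* overlapped between embedding times. It had 45.3, 44.3 and 40.4 CPM at 72 h and 52.2, 44.4 and 51.5 CPM at 96 h in the dilute gel, and from 33.6 to 43.6 CPM and from 34.3 to 50.8 CPM in the dense gel. Its difference across both gels was -0.16 ± 0.09 on the log2 scale (adjusted p = 0.205), with a 95% interval from -0.35 to 0.04, and it was called without replicate 3 at 96 h in the dense gel (-0.22, adjusted p = 0.0454). *Esrp1* ranged from 13.4 to 22.5 CPM over the 6 libraries of the earlier embedding and from 16.4 to 25.3 CPM over the 6 of the later one, and its difference was -0.16 ± 0.10 (adjusted p = 0.243). In the dense gel alone it was called lower at 72 h without replicate 1 of that group (-0.36, adjusted p = 0.0432).

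*Grhl2*, the weakest of the 10 genes per transcript length, had 5.30, 4.49 and 4.66 CPM at 72 h and 8.62, 6.18 and 6.43 CPM at 96 h in the dilute gel. From the dense gel came 6.09, 3.25 and 3.41 CPM at 72 h and 6.52, 6.90 and 5.06 CPM at 96 h. The groups did not overlap in the dilute gel, and in the dense gel replicate 1 at 72 h lay above 1 library at 96 h. Neither gel alone gave a call in the fit without a replicate term (-0.55 in log2 with the dilute gel, adjusted p = 0.0880, and -0.54 in the dense gel, adjusted p = 0.158). Across both gels *Grhl2* was 1.46-fold lower after embedding at 72 h (-0.55 ± 0.16, edgeR adjusted p = 0.0150). Without replicate 1 at 72 h in the dense gel the difference in that gel was -0.89 (adjusted p = 0.00815).

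The dense gel was compared with the dilute gel within each embedding time. No member was called at 72 h, at 96 h or across both times with edgeR's quasi-likelihood test, which called 0 of 15563, 0 of 15861 and 0.0305% of 16388 genes. At an unadjusted p below 0.05 there were 4 members at 72 h (6.9% of all genes), 4 at 96 h (9.95%) and 6 across both times (12.7%). The log2 fold change was below 0 for 9 of the 10 genes at 72 h, for 10 of 10 at 96 h and for 9 of 10 across both, with medians of -0.28, -0.22 and -0.27 beside 0.00 over all genes. The comparison at 72 h and that at 96 h share no library, but the 10 genes varied together among replicates, and no test of this shared direction was made.

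*Cldn6* had the smallest p at 72 h. It had 70.5, 64.5 and 47.2 CPM in the dense gel, all below the 83.4, 86.9 and 99.8 CPM of the dilute gel. The difference was -0.57 ± 0.14 on the log2 scale (edgeR adjusted p = 0.698). *Krt8* and *Cldn4* also did not overlap between gels at 72 h, at -0.36 and -0.47 in log2, so that 3 members had no overlap there, as did 11.1% of all genes. At 96 h the genes without overlap were *Cldn4* (-0.37), *Krt19* (-0.48) and *Cldn7* (-0.31), where 15.5% of all genes had none. Over all 12 libraries 0 members were without overlap between gels, as against 0.476% of all genes. Only *Cldn4* was separated between the gels at both embedding times, and across both times it was 1.34-fold lower in the dense gel (-0.42 ± 0.11, adjusted p = 0.162). DESeq2 on all 12 libraries called 2 members there, *Cldn4* (adjusted p = 0.0173) and *Cldn6* (adjusted p = 0.0390), and 0 members within either embedding time, while limma-voom called 0 in each, so the call on these genes depends on the tool. DESeq2 called 204 of all genes across both times. Without a filter on low counts edgeR called 3 members at 72 h, 1 at 96 h and 5 across both, with 322, 333 and 512 of all genes called.

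**Figure D3:**
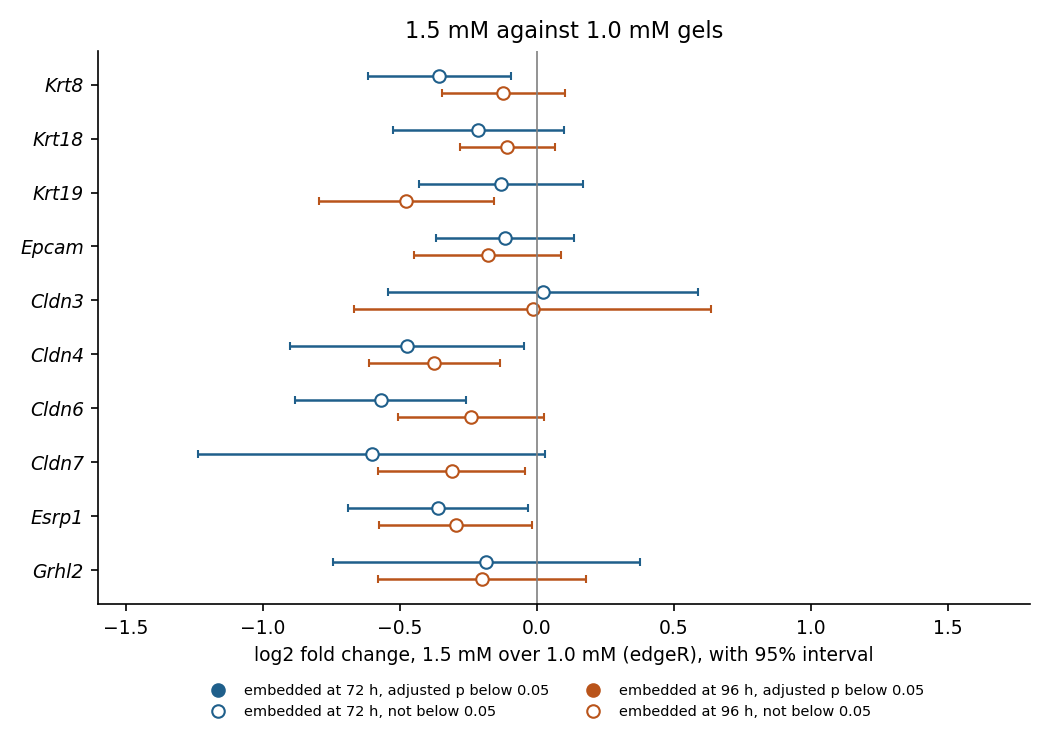
Log2 fold change of each gene between the dense 1.5 mM and the dilute 1.0 mM gel (x axis, positive is higher in the dense gel), for gastruloids embedded at 72 h (blue) and at 96 h (orange), 3 libraries against 3 in each. Bars are 95% intervals from the edgeR fit and open points did not pass an adjusted p of 0.05, which is all of them, and 19 of the 20 points lie left of 0.

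The effect of embedding time was not shown to differ between the gels for any of the 10 genes. In the interaction test of the 12 libraries 0 members were called by edgeR, by DESeq2 or by limma-voom, and 0 had an unadjusted p below 0.05 in edgeR, where 4.32% of all genes did. For *Krt19*, the member with the smallest p (edgeR adjusted p = 0.953), the difference between gels was 0.35 ± 0.21 on the log2 scale, and for *Krt8* it was -0.23 ± 0.17.

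The 10 genes covered a wide range of levels. On the FPKM scale, over the 12 libraries, *Krt8* averaged 46.4, *Krt18* 40.5, *Cldn6* 37.2 and *Epcam* 19.3, followed by *Krt19* (8.94), *Cldn7* (6.30), *Cldn4* (4.85), *Esrp1* (3.71), *Cldn3* (1.305) and *Grhl2* (0.892). The steps from *Cldn6* to *Epcam*, from *Epcam* to *Krt19* and from *Esrp1* to *Cldn3* held in 12 of 12 libraries. The order of *Krt8*, *Krt18* and *Cldn6* was not fixed, since *Krt8* exceeded *Krt18* in 9 libraries and *Krt18* exceeded *Cldn6* in 5. *Krt19* exceeded *Cldn7* in 8 libraries, and *Cldn4* exceeded *Esrp1* in 8. *Epcam* varied least between libraries, with a highest level 1.55 times its lowest in CPM, and *Krt19* most, at 3.66 times.

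**Figure D4:**
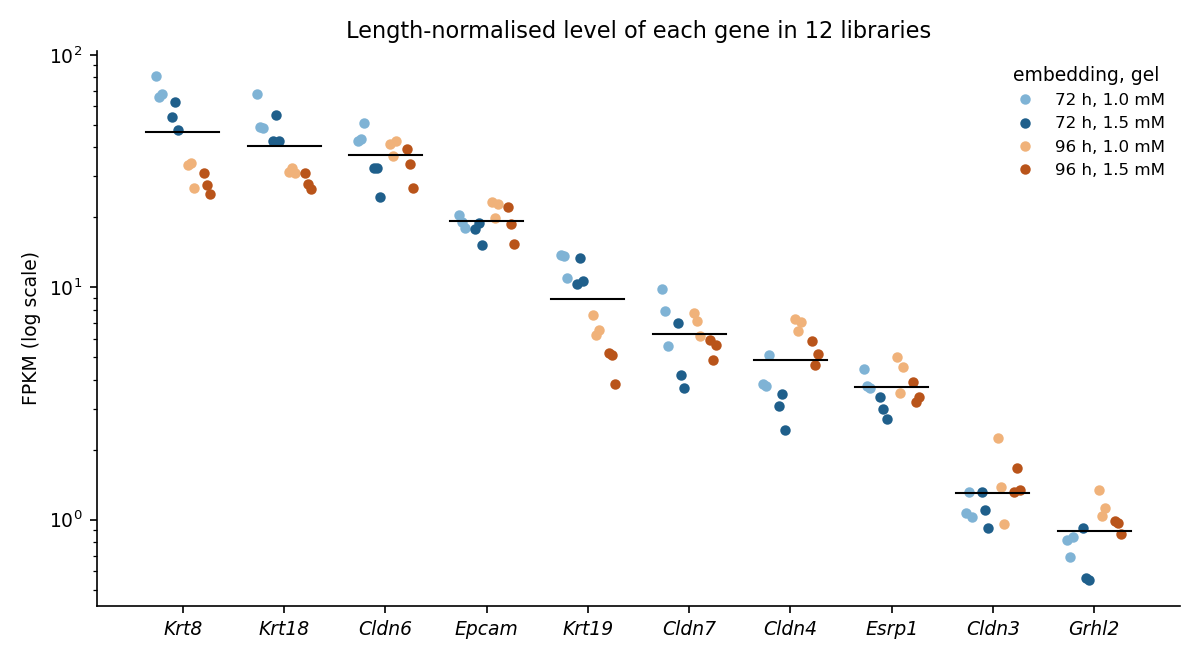
FPKM of each gene in every library on a log axis, in order of the mean over 12 libraries (horizontal line), with libraries coloured by embedding time and gel. *Krt8*, *Krt18* and *Cldn6* have the highest levels and *Grhl2* the lowest, and the blue points (72 h) of the 3 keratins all lie above their orange points (96 h).

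Ratios within a library describe the balance of the genes, and were chosen after their values had been seen, so no test is given. The FPKM ratio of *Krt8* to *Krt18* ran from 1.12 to 1.40 in the 6 libraries of the earlier embedding and from 0.859 to 1.07 in the 6 of the later one. On this scale the type II keratin exceeded its partner in 6 of 6 libraries at 72 h and lay on both sides of it at 96 h. Against both type I keratins summed, *Krt8* ran from 0.894 to 1.14 at 72 h and from 0.709 to 0.877 at 96 h. Among the 4 claudins *Cldn6* made up 68.8 to 81.3% of the summed FPKM in every library, while *Cldn4* made up 6.67 to 8.44% at 72 h and 10.3 to 13.2% at 96 h. The FPKM ratio of *Krt8* to *Cldn4* ran from 13.3 to 21.2 at 72 h and from 3.77 to 5.91 at 96 h. The summed FPKM of the 4 claudins was 56.3 to 62.6 at 72 h and 51.6 to 58.6 at 96 h in the dilute gel, and 31.5 to 44.0 and 38.8 to 52.3 in the dense gel.

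The genes also varied together among replicates, which is described with no test since all values of a library share its depth and its pool of gastruloids. Over the 12 libraries the log2 CPM of *Krt8* had a Pearson's r of 0.98 with *Krt18* and of 0.94 with *Krt19*, and with the group means removed these fell to 0.80 and 0.63. *Cldn4* had an r of -0.63 with *Krt8* over the 12 libraries and of 0.36 with the group means removed, so the opposite movement of these genes lay between groups. Of the genes outside the junction, *Esrp1* was close to *Epcam* (0.79), *Cldn7* (0.78) and *Grhl2* (0.77). Replicate 3 was the lowest of its group for 9 of the 10 genes at 72 h in the dense gel and for 7 of 10 at 96 h in the dense gel, and replicate 1 of every group was the highest of its group for 6 or 7 genes. Among 11335 other genes, all averaging 100 counts or more, those closest over 12 libraries to the mean of the 10 genes in centred log2 CPM were *Porcn* (r = 0.94), *Tm7sf2*, *Tcim*, *Galnt11* and *Rhob* (0.91). With the group means removed they were *Tcim* (0.98), *Mov10*, *Tjp3*, *Gm15222* and *Ackr3* (0.95).

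The other genes of epithelial junctions were read from lists, in the comparison of embedding times across both gels, beside the 16.2% of all genes called higher and the 14.8% called lower. Of 9 other claudins tested from a list of 17, *Cldn12* (0.27, adjusted p = 0.00166) and *Cldn1* (0.62) were called higher at 72 h and *Cldn5* (-2.14, adjusted p = 1.45e-06) and *Cldn8* (-1.19) lower. Of these, *Cldn8* had only 5 to 39 counts per library. *Cldn5* is the claudin of endothelium, and it had 3.25 to 9.49 CPM at 72 h and 20.3 to 27.6 CPM at 96 h. Of 15 other tight junction and apical polarity genes 8 were called higher and 0 lower (8 and 0 with DESeq2), among them the junction plaque gene *Cgnl1* (0.80, adjusted p = 0.00219) and the polarity gene *Pard6b* (0.79, adjusted p = 0.00359), and the list had a median of 0.22. Of 12 genes of adherens junctions and desmosomes 6 were higher, among them the desmosomal *Pkp2* (0.83, adjusted p = 0.00178) and *Dsg2* (0.77, adjusted p = 0.00140), and 1 was lower, *Ppl* (-0.62), which was 0 with DESeq2. *Cdh1*, the E-cadherin of these junctions, had a difference of 0.11 (adjusted p = 0.44) and was not called.

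Of 5 other keratins tested from a list of 13, *Krt13* (1.99) and *Krt80* (0.95) were higher at 72 h, both with a mean below 20 counts, and *Krt7* (-1.08, adjusted p = 1.43e-05) and *Krt10* (-0.39, adjusted p = 0.0449) were lower. *Krt7*, a type II keratin of simple epithelia like *Krt8*, had 2.40 to 4.94 CPM at 72 h and 6.04 to 10.6 CPM at 96 h, with no overlap, so the keratins of simple epithelia did not share one direction. Without the pair of libraries richest in *CT010467.1* 1 of the other keratins was lower. Of 13 other epithelial membrane and trafficking genes 0 were called higher (0 with DESeq2) and 1 lower, *Rab25* (-0.51, adjusted p = 0.0113). Of 8 other regulators 3, all with means below 100 counts, were lower: *Esrp2*, the paralogue of *Esrp1* (-1.23, adjusted p = 3.35e-04), and *Grhl3* (-1.18, adjusted p = 0.00207) and *Grhl1* (-0.95, adjusted p = 0.0246), the paralogues of *Grhl2*. Of 10 mesenchymal genes *Cdh2* (0.50, adjusted p = 0.00569), *Zeb2* and *Vim* (both 0.36) were higher and *Twist2* (-1.06, adjusted p = 9.07e-04) and *Twist1* (-0.25) lower. Between gels, edgeR called 0 genes of any of these lists across both embedding times. *Rab25*, *Esrp2*, *Grhl1*, *Grhl3* and the genes given here without an adjusted p were named after their values had been seen.

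**Figure D5:**
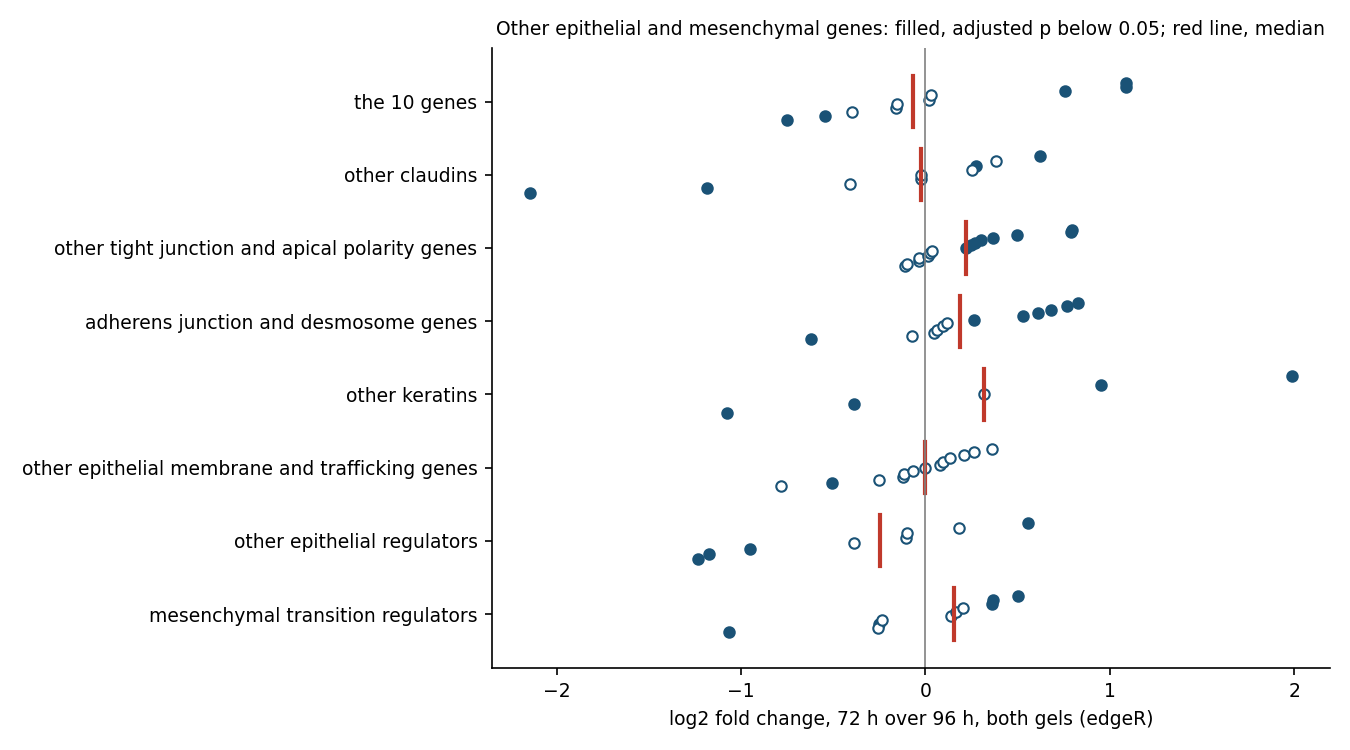
Log2 fold change between embedding at 72 h and at 96 h across both gels (x axis, positive is higher at 72 h) for the 10 genes and for the tested genes of each list. Each point is a gene, filled points passed an adjusted p of 0.05 in edgeR and red lines are medians, which run from -0.25 for the other regulators to 0.32 for the other keratins.

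Markers of several cell types moved with embedding time as well, and their part in the results above was not tested. In this comparison across both gels 16.2% of all genes were called higher at 72 h and 14.8% lower. All 6 notochord and node markers were called higher at 72 h, among them *Shh* (1.41, adjusted p = 2.30e-06) and *T* (1.298, adjusted p = 6.44e-07), and their summed level was 284 to 435 CPM at 72 h and 131 to 226 CPM at 96 h. Of 16 markers of definitive and gut endoderm 6 were higher, among them *Shh*, which is in both lists, and *Gata6* (1.22, adjusted p = 7.10e-05), and 2 were lower, *Sox17* (-0.35) and *Pax9* (-0.47), with sums of 493 to 635 CPM at 72 h and 363 to 493 CPM at 96 h. Of 10 epiblast and pluripotency markers 6 were lower, among them *Dppa5a* (-2.60, adjusted p = 4.94e-09) and *Utf1* (-2.31, adjusted p = 1.45e-07), and 2 were higher, a count that was 0 without the pair of libraries richest in *CT010467.1*. The sums of this list overlapped, at 263 to 309 CPM at 72 h and 290 to 396 CPM at 96 h. *Dnmt3b*, named after its values were seen, was the largest term of each sum, with 218 to 254 CPM at 72 h and 190 to 224 CPM at 96 h. These sums thus followed mainly this gene, and not the 6 markers that were lower. Of 6 endothelial markers 3 were lower, among them *Tie1* (-0.74, adjusted p = 0.00973) and *Cdh5* (-0.65, adjusted p = 0.0234), and 1 was higher. Their sums overlapped as well, at 202 to 326 CPM at 72 h and 216 to 305 CPM at 96 h. The largest term of each was *Kdr*, named after its values were seen, with 3828 to 5738 counts per library at 72 h and 3321 to 5018 at 96 h. The endothelial sums thus followed mainly *Kdr*, and not the 3 markers that were lower. Of 8 germ-cell-like markers 3 were lower and 1 was higher, *Prdm1* (0.76, adjusted p = 1.66e-04), with overlapping sums of 121 to 168 CPM at 72 h and 114 to 132 CPM at 96 h. Of 6 nephric markers 2 were lower and 1 was higher, *Lhx1* (1.46, adjusted p = 9.74e-07). Their sums were 52.8 to 70.2 CPM at 72 h and 20.99 to 45.5 CPM at 96 h. *Lhx1* was the largest term of each sum, with 36.4 to 54.9 CPM at 72 h and 11.8 to 20.96 CPM at 96 h. The higher sums at 72 h thus followed mainly this gene, and not the 2 markers that were lower.

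Of the other epithelial sources, some defining markers were at or near 0 and others were not. The surface ectoderm markers *Trp63*, *Krt5* and *Krt14* had at most 4 counts in any library, and of the 5 other markers of that list 1 was higher and 1 lower, with sums of 12.6 to 20.2 CPM at 72 h and 8.60 to 20.9 CPM at 96 h. Of 7 trophoblast markers *Tpbpa* and *Prl2c2* had 0 counts in all libraries and *Elf5* and *Gcm1* at most 3, and 0 of the 3 tested were called (0 with DESeq2), with sums of 58.2 to 215 CPM at 72 h and 11.6 to 105 CPM at 96 h. *Hand1* of that list, which mesoderm also uses, had 144 to 4773 counts per library and was named after its values were seen. Of 8 extraembryonic endoderm markers *Afp* had 0 counts in all libraries, and 2 of the 6 tested were higher, *Sox7* (0.70, adjusted p = 0.00288) and *Ttr* (2.01). The sums of this list were 16.9 to 31.7 CPM at 72 h and 9.67 to 16.01 CPM at 96 h. They followed mainly *Sox7*, the largest term of each, with 13.0 to 26.2 CPM at 72 h and 7.90 to 13.3 CPM at 96 h. Of the 6 axial markers *T* and *Pax6* (0.82) were higher and *Meox1* (-1.72, adjusted p = 2.45e-05) and *Sox2* (-0.50) lower. Of near-identical copies, *Krt8-ps*, a copy of *Krt8*, averaged 2.92 counts and *Gm5200*, a copy of *Krt18*, had 0. How many reads matched a gene and its copy alike was not measured, so *Krt8* and *Krt18* are uncertain to that extent. Of the genes on the opposite strand that overlap these genes, *Gm36026* at *Krt8* averaged 6.42 counts and *Gm16136* at *Grhl2* 23.6.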

How the data were processed

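RNA was measured in 12 libraries of gastruloids, 3 in each of the 4 groups given by the labels. The authors selected poly-A RNA, trimmed reads with cutadapt 4.4, aligned them to mm10 with STAR 2.7.10b under an Ensembl annotation of their own making, and deposited the table of raw counts. The text of the methods gives STAR for this step, the table's name refers to HTSeq, and the strand setting of the counts is not given in the sources used here. The authors computed FPKM with Cufflinks 2.2.1.3 and deposited them in a second table. Another deposited table, which holds the log2 fold changes and adjusted p-values of the authors' own DESeq2 comparisons, was not used. Total counts were 23011791 to 27609422 per library, and intervals in the text come from the spread between replicates.

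Counts were analysed in R 4.3.3 with edgeR 4.0.16: 36 mitochondrial genes were left out, filterByExpr was applied by group (minimum count 10, minimum total 15), TMM factors were computed, and glmQLFit and glmQLFTest were run with Benjamini-Hochberg adjustment over all genes tested. Pairwise comparisons used 6 libraries, and comparisons across gels, across embedding times and their interaction used all 12. The steps were tested on simulated data. CPM use TMM-scaled totals, and correlations use log2 CPM with a prior count of 2. Genes named are the 10, the 2 of each list with the largest absolute log2 fold change of embedding time across both gels among those averaging 100 counts or more at an adjusted p below 0.05, and the 5 genes closest to the mean of the 10 by each measure of likeness, and others are said to be named after their values were seen. Of the genes that this rule picks, 1 is not reported here. The genes and lists were chosen with earlier results of these data known. Alternatives were RLE normalization, no filter or 1 CPM in at least 3 libraries, DESeq2 1.42.0, limma-voom (limma 3.58.1), replicate number as a block, all libraries in a single fit, mitochondrial genes kept, FPKM with pseudocounts of 1 and 0.1, and each library left out. Leaving out the 2 libraries richest in *CT010467.1*, and the alternatives for lists, were chosen after the data had been seen. Motifs were searched in RefSeq promoter windows of up to 250 bases, cut to bases before both the RefSeq and the GENCODE start.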

Additional observations from a re-analysis of the deposited data

How the results depend on the processing

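The 13 calls on the 10 genes kept their direction in all 242 alternatives. Those with FPKM have no p-value, so they bear on direction only. Among the alternatives with a test 1 lost significance, that of *Cldn4* in the dilute gel without 1 library, as given above. The number of genes called in the dense gel ran from 4 to 7 when each library was left out, with 7 without replicate 1 at 72 h, and was 6 without the 2 libraries richest in *CT010467.1*. It ran from 3 to 4 in the dilute gel and from 5 to 6 across both gels. The comparisons of gels and the interaction gave 0 in each leave-one-out fit. Without a filter on low counts, 3 members were called between gels at 72 h, 1 at 96 h and 5 across both, and DESeq2 called 2 across both, and the cause was not tested. Calls over all genes were 1457 in the dilute gel (2283 without a filter, 731 to 1680 with a library left out). They were 3033 in the dense gel (1181 to 4102 with a library left out, 2990 without the pair of libraries richest in *CT010467.1*). Across both gels they were 5092 (3944 to 5671 with a library left out). Between gels across both times they were 5 (512 without a filter, 204 with DESeq2, 2 to 80 with a library left out, 0 without that pair of libraries). Between gels at 72 h and at 96 h, where edgeR called 0, the counts were 322 and 333 without a filter and 16 and 97 with DESeq2, and at 96 h 2 with RLE, 2 with limma-voom and 0 to 26 with a library left out. In the interaction they were 238 without a filter and 2 with DESeq2, beside 0.

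Replicates with the same number deviated together in 13 of 18 pairs at an r above 0.1, with r from 0.036 to 0.313, and in 33 of 36 pairings of a library with another group it correlated best with the library of its own number, a hint from the data and not from the design. With replicate number as a block, members called were 5 in the dilute gel (adding *Grhl2*, adjusted p = 0.0475), 4 in the dense gel, 5 across both gels and 0 in the other comparisons. The block moved the calls over all genes to 2122 in the dilute gel, 3885 in the dense gel and 5955 across both gels, where the fit without it gave 1457, 3033 and 5092. Between gels it moved them to 43 and 289 at 72 h and 96 h, 81 across both times and 5 in the interaction, where the fit without it gave 0, 0, 5 and 0. With the block 5 endothelial markers were lower between embedding times, against 3, the membrane and trafficking genes called were 1 higher and 2 lower, against 0 and 1, and 1 trophoblast marker was higher, against 0, and without the 2 libraries richest in *CT010467.1* 1 nephric marker and 0 adherens junction genes were lower, against 2 and 1.

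Sign changes were seen only in values that were not called. *Cldn3* between gels was -0.0165 and -0.0311 at 72 h with FPKM (pseudocounts 1 and 0.1), 0.0743 at 96 h with limma-voom and 0.0338 with the replicate block. Across both times it was -0.00039 with the stricter filter, -0.0181 and -0.0183 with FPKM and -0.16 without the 2 libraries richest in *CT010467.1*. With each library left out it ran from -0.18 to 0.14 at 72 h, from -0.28 to 0.40 at 96 h and from -0.12 to 0.20 across both, and from -0.67 to 0.0019 between embedding times in the dilute gel. *Cldn7* between embedding times across both gels was -0.0215 with limma-voom, -0.0176 with the replicate block, -0.0273 and -0.0401 with FPKM and -0.12 without the same pair of libraries. With each library left out it ran from -0.13 to 0.12, from -0.0249 to 0.36 in the dilute gel and from -0.54 to 0.0726 in the dense gel, and *Cldn6* from -0.0244 to 0.11 across both gels and from -0.30 to 0.0118 in the dense gel. In the interaction, *Cldn3* was -0.0715 with limma-voom and -0.0173 with the replicate block, and *Grhl2* -0.0459 and -0.0216. With each library left out the interaction ran from -0.38 to 0.30 for *Cldn3*, from -0.20 to 0.0529 for *Cldn4*, from -0.0814 to 0.19 for *Epcam*, from -0.24 to 0.0605 for *Esrp1*, from -0.35 to 0.18 for *Grhl2* and from -0.22 to 0.0602 for *Krt18*. Depth limits *Cldn3* most, at 38 to 95 counts a library.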
